A study of Mus musculus with 6 samples.

Results

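The broad gene-end open regions are 1081 stretches of open chromatin in mouse β-cells that lie at an end of a protein-coding gene and were wide in every control library. They come from ATAC-seq, an assay in which Tn5 transposase cuts DNA where chromatin is accessible, and from 6 deposited peak lists, 1 for each library. Merging all peaks that overlap by 1 bp or more gave 156745 regions, and 73402 of these are autosomal and hold a peak of every library. Of those shared regions, 13860 lie within 1 kb of either end of a protein-coding gene span, and the 1081 broad ones have at least 1500 bp under peaks in each of the 3 control libraries. The other 12779 gene-end regions and the 331 equally broad regions away from gene ends serve for comparison.

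The study compared sorted β-cells of control mice with those of mice carrying a Chd4 knockout, labelled Chd4KO as genotype and called Chd4Db in the design text. Both groups received tamoxifen, and in both the cells were taken from dispersed islets by their Tomato fluorescence, with 3 libraries in each group. Age, alleles and Cre driver are not stated in the labels. Nor do these say that the 3 libraries of a group are separate mice, so p-values measure the spread between libraries only, and that spread may be technical.

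CHD4 is an ATP-dependent chromatin remodeler and the helicase subunit of the NuRD complex, which also carries histone deacetylases. Gene starts in mammals often lie in CpG islands, stretches rich in the dinucleotide CG that tend to stay free of nucleosomes. Broad domains of active chromatin around gene starts are best known from genes of cell identity.

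The number of peaks was 100109 to 110693 in the control lists and 119088 to 124125 in the Chd4KO lists, and peaks covered 58.0 to 63.8 Mb against 65.8 to 69.1 Mb, so the groups did not overlap in either. The lists hold no read counts, so depth is unknown, and more peaks from depth and more open chromatin cannot be told apart. Among genes that define cell types, Gcg, Ppy and Cpa1 had no peak in any library over the gene and 1 kb on either side, while Ins1 had 1703, 1836 and 1784 bp under peaks in controls and 823, 1302 and 1275 bp in Chd4KO. Summed bases at 12 alpha-cell markers, of which Gcg alone was at 0, were 17569 to 19980 bp in controls and 20799 to 23098 bp in Chd4KO. At 12 endothelial markers they were 13273 to 15066 bp in controls and 17079 to 18685 bp in Chd4KO, with Cdh5 and Tie1 at 0. At 12 mesenchymal markers the sums were 10825 to 12231 bp and 16513 to 17363 bp, with Dcn at 0. At 12 acinar markers they were 1809 to 2554 bp and 3184 to 3949 bp, with 6 genes at 0 in all libraries. The groups did not overlap in these 4 lists, and they did in the sums of the other 3 (delta-, gamma- and epsilon-cell, duct and leukocyte markers). The part of these cell types in the results below was not tested. Chd4 itself had 2303 to 2454 bp under peaks in controls and 2298 to 2891 bp in Chd4KO, which does not check the deletion, because a deleted exon cannot be read from a peak list.

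An end of 1278 protein-coding genes, 5.84% of 21887, lies at a broad region, and 907 of the 1081 regions touch the ends of a single gene. A RefSeq transcription start lay inside 801 regions (74.1%), against 60.7% of the other gene-end regions and 29.6% of broad regions elsewhere. Of these, 707 held starts of 1 gene and 94 held starts of 2 genes, in 89 cases on opposite strands. The annotation used gives gene spans and starts but no exons, so exons, introns and untranslated parts were not told apart.

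The promoters below, taken from RefSeq on GRCm38.p6 as 250 bases before to 50 bases after a start, are shown because the regions of St6gal1, Foxc1 and Cebpa were among those with the largest differences in width between the genotypes and that of Jun was among the widest. Capitals mark matches on either strand to GGGCGG, to the CCAAT box or to TATAAA. St6gal1 encodes a sialyltransferase and has a pair of listed starts in its region, Foxc1 a forkhead transcription factor, Jun a subunit of the AP-1 transcription factor, and Cebpa a bZIP transcription factor.
St6gal1, first start (chr16:23224490-23224789, plus strand): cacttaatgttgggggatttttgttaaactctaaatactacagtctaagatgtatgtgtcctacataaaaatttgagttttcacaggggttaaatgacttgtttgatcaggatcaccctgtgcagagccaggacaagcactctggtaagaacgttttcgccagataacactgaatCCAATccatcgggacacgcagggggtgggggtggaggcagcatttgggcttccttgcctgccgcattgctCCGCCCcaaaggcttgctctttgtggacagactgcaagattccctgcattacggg
St6gal1, second start (chr16:23225771-23226070, plus strand): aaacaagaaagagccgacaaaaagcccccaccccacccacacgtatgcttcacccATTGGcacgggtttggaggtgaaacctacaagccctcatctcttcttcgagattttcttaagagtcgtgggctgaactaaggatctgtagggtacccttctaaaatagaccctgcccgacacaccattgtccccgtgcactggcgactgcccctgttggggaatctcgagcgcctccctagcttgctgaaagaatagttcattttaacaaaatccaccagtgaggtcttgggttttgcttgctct
Foxc1 (chr13:31806396-31806695, plus strand): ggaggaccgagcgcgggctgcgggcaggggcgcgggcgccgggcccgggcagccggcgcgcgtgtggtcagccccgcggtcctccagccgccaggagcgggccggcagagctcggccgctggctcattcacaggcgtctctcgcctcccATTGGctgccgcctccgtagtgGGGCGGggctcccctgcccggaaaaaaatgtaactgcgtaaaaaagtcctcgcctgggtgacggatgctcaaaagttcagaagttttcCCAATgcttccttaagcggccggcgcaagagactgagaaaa
Jun (chr4:95052173-95052472, minus strand): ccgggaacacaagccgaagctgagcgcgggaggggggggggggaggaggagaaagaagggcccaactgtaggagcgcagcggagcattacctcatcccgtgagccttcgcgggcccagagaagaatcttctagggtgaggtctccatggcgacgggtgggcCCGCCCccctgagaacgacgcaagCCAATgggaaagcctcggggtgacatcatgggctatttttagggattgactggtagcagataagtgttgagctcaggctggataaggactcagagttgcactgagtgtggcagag
Cebpa (chr7:35119043-35119342, plus strand): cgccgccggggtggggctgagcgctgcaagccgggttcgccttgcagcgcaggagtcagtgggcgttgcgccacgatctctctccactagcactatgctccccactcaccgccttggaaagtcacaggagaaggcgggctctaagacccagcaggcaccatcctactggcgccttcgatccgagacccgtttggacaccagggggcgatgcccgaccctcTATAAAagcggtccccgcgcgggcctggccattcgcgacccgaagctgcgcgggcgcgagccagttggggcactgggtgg

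In the promoter of Jun and the first promoter of St6gal1 both a GGGCGG and a CCAAT match were found, in the second promoter of St6gal1 only CCAAT, in that of Foxc1 a GGGCGG and 2 CCAAT matches, and in that of Cebpa only TATAAA among the motifs searched. Over the 1053 starts inside broad regions, the median GC content of the 300 bases was 67%, against 62% at 9422 starts in other gene-end regions and 56.3% at all 21263 starts in the table. The median number of CG dinucleotides was 28, 22 and 13 in the same order. GGGCGG, the core of the Sp-factor site, was found in 77.1%, 68.5% and 46.2% of promoters. CCAAT, the core of the NF-Y site, was found in 30.9%, 39.1% and 38.2%, and TATAAA in 5.41%, 5.91% and 12.6%. CCGGAAGT, an ETS-factor site, was found in 4.18%, 9.35% and 5.15%, TGACGTCA, the cAMP response element, in 3.13%, 3.63% and 2.23%, and GCGCATG, part of the NRF1 site, in 5.79%, 7.65% and 4.80%. Promoters in broad regions were thus the richest in CG of the 3 sets and held CCAAT and the ETS site at lower shares than promoters of narrower gene-end regions; the motifs were not tested for factor binding.

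Width was chosen by the rule in the control libraries and is given here as a description. The median region had 1720, 1747 and 1724 bp under peaks in controls (1730 ± 14.6 bp, SD, n = 3 libraries) and 1692, 1722 and 1668 bp in Chd4KO (1694 ± 27.1 bp, n = 3). The library medians overlapped, since Chd4KO 2 lay above Control 1. At 884 regions (81.8%) the group means differed by less than 10%, and 847 regions kept at least 1500 bp in all 6 libraries. A further 182 fell short of 1500 bp in 1 or 2 of the Chd4KO libraries and 52 in all 3. At the limit itself, the regions of Mfsd6, Klf7 and Enpp1 were inside with 1500 bp in their lowest control, and those of Cd164, Cand1 and Fam126a outside with 1499 bp.

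**Figure D1:**
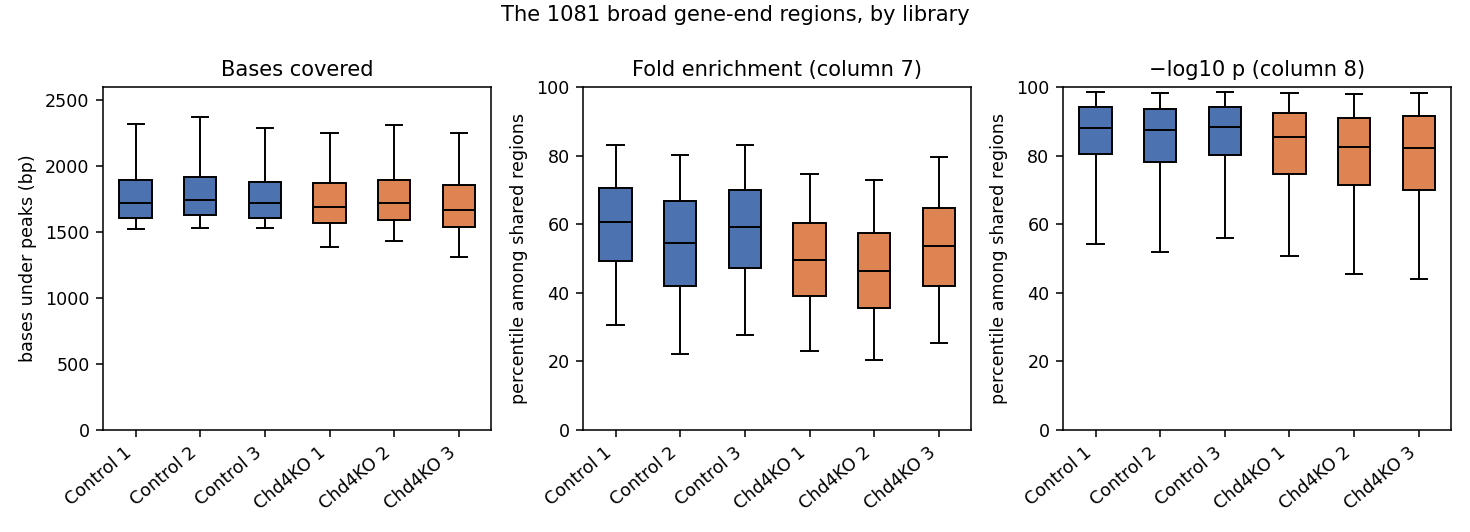
Bases under peaks (bp), and percentiles of the fold enrichment and of the −log10 p among 73402 shared regions, for the 1081 broad gene-end regions in each library. Lines show medians, boxes quartiles and whiskers the 5th and 95th percentiles. Median widths are 1720 to 1747 bp in controls and 1668 to 1722 bp in Chd4KO. Median percentiles of the −log10 p are 87.5 to 88.4 in controls and 82.3 to 85.4 in Chd4KO.

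The median log2 difference of bases covered, Chd4KO minus Control, was -0.02 over the broad regions, against 0.00 over all shared regions. With limma, run on all 73402 shared regions and with Benjamini-Hochberg adjustment over all of them, 61 broad regions (5.64%) were called lower in Chd4KO and 9 (0.833%) higher at an adjusted p under 0.05. Over all shared regions 2.65% were called lower and 4.39% higher. Choosing regions by their width in the controls favours falls, so these shares are a description and support nothing. When the 1500 bp were asked of all 6 libraries, 847 regions remained, with 20 called lower and 9 higher, and when they were asked of the Chd4KO libraries, 996 regions held 20 lower and 35 higher. Scaling each library to the mean total of covered bases, which moved the median of all shared regions to -0.17, gave a median of -0.19 for the broad regions, with 340 lower and 1 higher. Of all shared regions, 12.6% were then called lower and 3.14% higher. In regions chosen by 2 controls, the median difference from the control left out was -0.01, -0.03 and -0.01 for Control 1, 2 and 3. The direction in which the calls leaned thus depended on which libraries chose the regions.

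The median rank of the broad regions was lower in Chd4KO. It is in percentile points, so the size of this difference is not compared with that of the width. A pair of the authors' values was ranked within each library over the same 73402 shared regions, taking the highest peak of a region: the fold enrichment at the summit (column 7 of the peak list) and the −log10 p of the peak (column 8). The median percentile of the −log10 p was 88.1, 87.5 and 88.4 in controls (88.0 ± 0.434, n = 3) and 85.4, 82.5 and 82.3 in Chd4KO (83.4 ± 1.76, n = 3). All Chd4KO libraries lay below all controls. The median difference over the regions was -4.00 points, against -1.38 over all shared regions, -1.57 over the other gene-end regions and -3.80 over broad regions elsewhere. Of the 1081 regions, 469 (43.4%) were called lower and 32 (2.96%) higher, against 22.0% and 18.8% of all shared regions. The other gene-end regions were called lower in 24.6% and higher in 11.1%, and the broad regions elsewhere in 36.9% and 8.76%. Ranked over each library's own list instead, the median difference was -1.57 points, with 211 broad regions called lower and 55 higher. Of all shared regions, 11.8% were called lower and 22.0% higher by that ranking. Without Control 3, 223 broad regions were called lower, and without Control 1, 279. The share of all shared regions called lower also fell without each library, to 13.7% without Control 3 and to 21.3% without Chd4KO 3. Whether the calls at broad regions lean on single controls beyond this general loss was not tested.

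Ranked by fold enrichment, the median percentile was 60.6, 54.6 and 59.1 in controls (58.1 ± 3.10) and 49.7, 46.4 and 53.7 in Chd4KO (49.9 ± 3.65), again without overlap. The median difference was -7.58 points, against -2.28 over all shared regions, -5.13 over the other gene-end regions and -4.72 over broad regions elsewhere. By this measure 184 broad regions (17.0%) were called lower and 18 (1.67%) higher, against 19.1% and 16.3% of all shared regions, so the share called lower was near the background. The other gene-end regions were called lower more often, in 27.2%, and the broad regions elsewhere in 12.1%. Without Control 3 the number called lower was 36, beside 11.1% of all shared regions. Without any other single library it was between 53 and 205, beside 12.7% to 18.8%. Both measures were lower at 138 regions. At 444 of the 469 regions with a lower rank of the −log10 p, the bases covered were not called. Of all broad regions only 5.64% were called lower and 0.833% higher in bases, so this count says little about how rank and width relate.

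Within a list, the median −log10 p of the broad regions was 6.37, 4.97 and 6.12 times that of all shared regions in controls and 4.14, 3.33 and 3.49 times in Chd4KO. The median −log10 p of the broad regions themselves was 421, 356 and 406 in controls and 424, 361 and 309 in Chd4KO, and the groups overlapped. That of all shared regions was 66.1, 71.6 and 66.3 in controls and 102, 108 and 88.7 in Chd4KO, without overlap. The lower ranks thus stand beside higher values of the other shared regions in the Chd4KO lists; these values move with depth, which is unknown. In a check that did not use the measured control to choose regions, the median difference in the percentile of the −log10 p from the control left out was -4.06, -3.17 and -4.25 points. All 3 Chd4KO libraries lay below that control in 69.6%, 61.7% and 69.2% of the regions, against 42.1%, 41.7% and 41.9% of all shared regions.

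**Figure D2:**
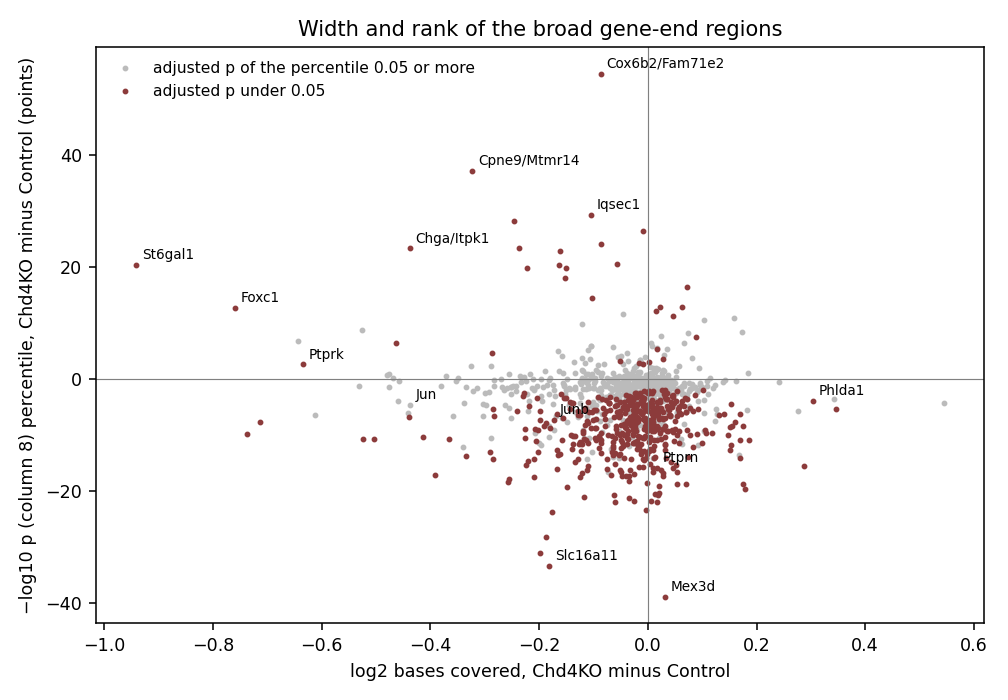
Each point is 1 of the 1081 broad regions, placed by its log2 difference of bases covered (x) and its difference in the percentile of the −log10 p (y, points), Chd4KO minus Control; red marks an adjusted p under 0.05 for the percentile. Most points lie near 0 in width and below 0 in rank, and 469 red points lie below 0 against 32 above.

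Fewer broad regions were covered by an unbroken peak in Chd4KO. A single unbroken peak made up the region in 84.9%, 89.6% and 83.2% of cases in controls (85.9 ± 3.35%) and in 78.6%, 79.4% and 72.8% in Chd4KO (76.9 ± 3.60%), and the groups did not overlap. In the other gene-end regions the means were 97.2% and 97.0%, and in broad regions elsewhere 80.4% and 62.8%. Choosing regions by bases in the controls favours such breaks in Chd4KO, so the share was also taken under other choices, added after seeing the data. In the 996 regions with the width asked of the Chd4KO libraries it was 86.3 ± 2.22% in controls and 81.3 ± 3.04% in Chd4KO, with 84.6% in the lowest control and 83.5% in the highest Chd4KO library. In the 847 regions with the width asked of all 6 libraries it was 86.7 ± 2.58% and 80.2 ± 3.12%. A single peak in all 6 libraries was present at 657 regions, a single peak in every control but several in every Chd4KO library at 35, and the reverse at 2. Of the 61 regions called lower in bases, 16 were among those 35.

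Where a region held exactly 1 start (603 regions), open bases lay mostly downstream of it. Before the start the median was 636 ± 7.23 bp in controls and 635 ± 8.54 bp in Chd4KO, and from the start on 1095 ± 6.43 bp and 1057 ± 20.8 bp. The strongest summit lay at a median of 48 bp before the start in controls and 49 bp in Chd4KO. At 800 bp downstream, 77.2 ± 1.10% of regions were under a peak in controls and 71.0 ± 2.66% in Chd4KO, with no overlap between 76.0% in the lowest control and 73.8% in the highest Chd4KO library. At 800 bp upstream the shares were 34.6 ± 0.533% and 33.7 ± 1.04%, and they overlapped. At 500 bp upstream they were 66.9 ± 0.253% and 64.8 ± 1.10%, and they did not overlap. These shares rest on the bases that chose the regions, and the separation downstream was not kept under another choice: with the width asked of the Chd4KO libraries, 76.4 ± 0.991% and 75.5 ± 1.67% of 556 regions were under a peak at 800 bp downstream, and the groups overlapped. The larger fall, or the smaller rise, lay downstream of the start in 360 of the 603 regions (59.7%), and in 24 of the 33 called lower in bases (72.7%). In controls 73.0 ± 1.13% of the 603 regions had more bases from the start on than before it, so no preference for the downstream side is read from these shares.

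**Figure D3:**
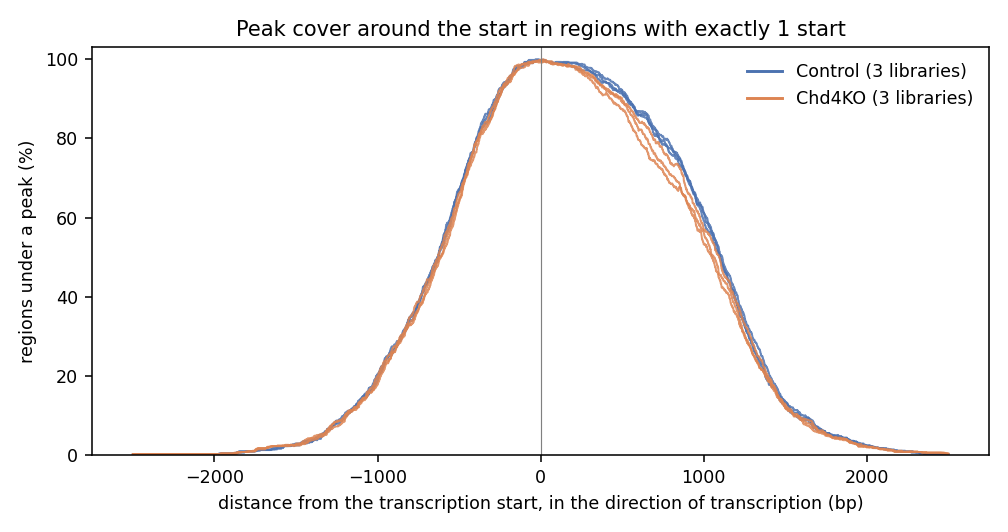
Percent of the 603 broad regions with exactly 1 start that are under a peak at each distance from that start (bp, in the direction of transcription), 1 line per library. At 500 bp upstream the controls, whose widths chose the regions, have a mean of 66.9% and the Chd4KO libraries 64.8%, without overlap. At 800 bp upstream the genotypes overlap, and at 800 bp downstream the means are 77.2% and 71.0%.

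The regions with the largest falls of width were at genes of several kinds. St6gal1 (chr16:23224510-23227226) had 2417, 2606 and 2554 bp under peaks in controls and 1308, 1320 and 1314 bp in Chd4KO. The groups were far apart, and the log2 difference was -0.94 ± 0.03 (SE, limma adjusted p = 0.0026). The change was not even over the region: of the 300 bases of its first printed promoter 135, 169 and 135 were under peaks in controls and 280, 266 and 211 in Chd4KO, and of the second 300 in every control but 100, 89 and 166 in Chd4KO. The percentile of its −log10 p moved the other way, from 55.5 ± 1.68 to 75.9 ± 4.37 (adjusted p = 0.0019). Foxc1 (chr13:31806160-31808794) had 2359, 2322 and 2382 bp in controls and 1367, 1326 and 1481 bp in Chd4KO (log2 difference -0.76, adjusted p = 0.0044). All of that difference lay downstream of the start, where the mean was 1884 bp in controls and 918 bp in Chd4KO, against 471 and 473 bp upstream. The percentile of its −log10 p rose by 12.7 points (adjusted p = 0.007). At Ptprk (chr10:28074274-28076714), a receptor-type tyrosine phosphatase, 2105, 2441 and 2317 bp in controls stood against 1286, 1562 and 1581 bp (log2 difference -0.64, adjusted p = 0.021), again mostly downstream, with 1815 and 1042 bp, and a single peak in each control was broken into 2 in each Chd4KO library. The percentile of its highest peak rose from 94.4 ± 0.644 to 97.0 ± 0.895 (adjusted p = 0.019; 0.078 without Control 2), but a mean over its peaks weighted by width gave -5.003 points. Thus the 3 widest regions among the largest falls narrowed downstream of a start or at the second start, while the rank of their highest peak rose.

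Smaller regions with falls were those of Prkd2, a protein kinase D (1712, 1644 and 1868 bp against 1147, 1167 and 846 bp), and of Mgat3, an N-glycan-modifying glycosyltransferase (1774, 1580 and 1661 bp against 1170, 929 and 1122 bp). Their adjusted p-values were 0.032 and 0.02, and without single libraries reached 0.094 and 0.062. The calls were lost for Prkd2 without any library but Chd4KO 3, for Mgat3 without Control 1, Control 3 or Chd4KO 3, and for Ptprk without Control 2, Control 3 or Chd4KO 2, where its adjusted p reached 0.066. St6gal1 and Foxc1 were called without each library, with adjusted p-values up to 0.03. Grk3, a G-protein-coupled receptor kinase (adjusted p = 0.05), Mecom, a zinc-finger transcription factor (0.14), and Sema4b, a semaphorin (0.054), had log2 differences of -0.71, -0.61 and -0.53 that missed the threshold although their groups did not overlap. A rise in rank was not shared by all of these falls. The percentile of the −log10 p was called lower at Prkd2 (-9.77 points, limma adjusted p = 0.011) and Grk3 (-7.75 points, 0.035). The Prkd2 call was lost without Control 3. The Grk3 call was lost without Control 1, Control 2 or Control 3 (limma adjusted p up to 0.12). The percentile was not called at Mgat3 (6.69 points), Mecom (-6.41) or Sema4b (-1.27). Of the 61 regions called lower in bases, 19 were also called lower in this percentile, beside 43.4% of all broad regions.

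**Figure D4:**
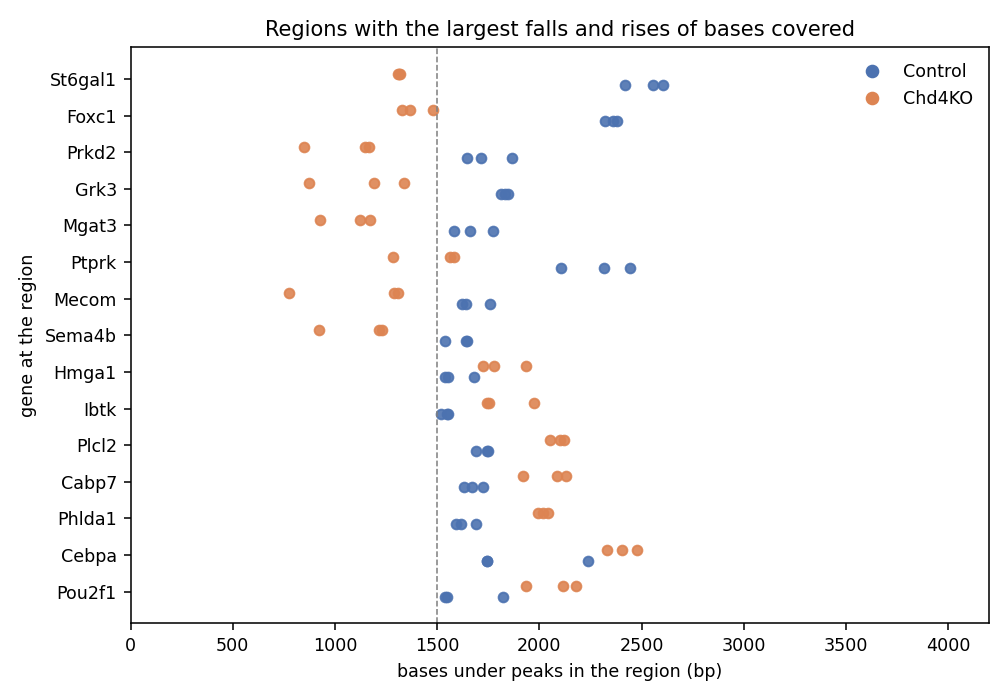
Bases under peaks (bp) in each library at 8 broad regions with the largest falls and 7 of those with the largest rises among those whose groups do not overlap; the dashed line marks 1500 bp. St6gal1 falls from 2417 to 2606 bp in controls to 1308 to 1320 bp in Chd4KO, and Phlda1 goes from 1591 to 1692 bp up to 1991 to 2040 bp.

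Rises of width were also found. All 3 Chd4KO libraries lay above all controls in bases at 97 regions (8.97%) and below them at 229 (21.2%), beside 18.8% and 14.1% of all shared regions. The choice by control width favours falls: of the 996 regions with the width asked of the Chd4KO libraries, 176 lay above and 113 below. Phlda1, which encodes a pleckstrin homology-like protein, had 1616, 1692 and 1591 bp in controls and 1991, 2040 and 2016 bp in Chd4KO (log2 difference 0.30, adjusted p = 0.0085). Plcl2, a phospholipase C-like protein, had 1692, 1743 and 1747 bp against 2052, 2121 and 2102 bp (log2 difference 0.28, adjusted p = 0.0072). Both of these were called without each library. With bases scaled to the mean total, the difference was 0.13 for Phlda1 (adjusted p = 0.09) and 0.11 for Plcl2 (adjusted p = 0.19), so neither was called then. Cebpa had 1744, 2240 and 1746 bp against 2402, 2333 and 2479 bp, and did not pass the test (log2 difference 0.34, adjusted p = 0.11; 0.015 without Control 2). Its added bases lay downstream of the start, with means of 625 and 1160 bp, while upstream there were 1285 and 1245 bp. Of the 9 regions called wider, none was called higher in the percentile of the −log10 p. At 6 it was called lower, Phlda1 among them (-4.00 points, limma adjusted p = 0.0056). Of all broad regions 2.96% were called higher and 43.4% lower, so no relation of width and rank is read from these 9.

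Some regions changed rank strongly without a call in width. The percentile of the −log10 p fell most at Mex3d, an RNA-binding protein gene, from 72.3, 70.1 and 75.8 in controls to 55.4, 23.7 and 22.1, with 1710 ± 129 and 1751 ± 182 bp under peaks (-39.0 points, adjusted p = 0.0041). Slc16a11, a member of the monocarboxylate transporter family, went from 73.5, 81.9 and 73.7 to 43.4, 50.7 and 34.9 (-33.4 points, adjusted p = 0.0008). Further large falls were at Lzts2 (-31.0 points), the shared region of Eif4e3 and Gpr27 (-28.3), Bhlhe22 (-23.7) and Nell1 (-23.4). These regions ended well below the median rank of the broad regions. In the other direction, the region of Cox6b2, a testis form of a cytochrome c oxidase subunit, rose from 35.3, 12.9 and 28.1 to 82.4, 79.9 and 77.6 (54.5 points, adjusted p = 0.00015). That of Cpne9, a copine, rose from 54.3, 49.0 and 52.4 to 89.1, 88.9 and 89.0 (37.1 points, adjusted p = 3e-05). Iqsec1, an exchange factor for Arf GTPases, rose from 60.7, 57.5 and 63.5 to 90.6, 87.8 and 91.2 (29.3 points, adjusted p = 4.1e-05). Creb5 (28.1 points), Ppp1r3b, a glycogen-targeting subunit of protein phosphatase 1 (26.4 points), and Celsr1, a planar polarity cadherin (24.1 points), made up the rest of the 6 largest rises. All 12 calls held without each library, but the Celsr1 call was lost with a mean over peaks weighted by width (12.6 points, adjusted p = 0.16).

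The 10 widest regions covered on average 2724 to 3052 bp in controls. The widest lay at the ends of Gm20783 and LOC108167694, and the others at Tsc22d2, Jun, Cnot6l with Gm52799, Zeb1, a zinc-finger transcription factor, Rims2, a protein of the presynaptic active zone, Arid1b, a SWI/SNF subunit, Junb, Fam155a and Foxp1. Both ends of Jun and both ends of Junb lie at their regions. Jun (chr4:95049748-95052921) had 2812, 3018 and 3174 bp in controls and 1825, 2503 and 2369 bp in Chd4KO. The groups did not overlap, but the log2 difference of -0.44 missed the threshold (adjusted p = 0.099) and passed it with scaled bases (-0.61, adjusted p = 0.023). Its bases upstream of the start were 692 and 699 bp on average and those downstream 2309 and 1533 bp. Junb had 2709, 2753 and 2941 bp against 2501, 2503 and 2449 bp (log2 difference -0.17, adjusted p = 0.048), a call that was lost without any 1 library (adjusted p up to 0.12). Foxp1, a forkhead transcription factor, was not called in width (2724 ± 28.6 and 2663 ± 135 bp), while the percentile of its −log10 p was 61.2, 61.9 and 66.6 in controls and 53.3, 41.0 and 31.8 in Chd4KO (adjusted p = 0.017; 0.071 without Control 3).

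The gene lists were chosen with earlier results of these data known, so their shares at broad regions are descriptions and show no preference. Among the 22 lists, regulators that damp or relay signalling stood at broad regions most often. Of 28 signalling feedback genes 14 (50%) had one, beside 5.84% of all protein-coding genes and 9.53% of the 13408 genes with a shared gene-end region. The widest included suppressors of cytokine signalling (Socs1, Socs2, Socs3, Socs7), Spry4, an inhibitor of receptor tyrosine kinase signalling, the insulin receptor substrate Irs2, the antiproliferative factor Tob1 and the forkhead factor Foxo3. The percentile of the −log10 p was called lower at 9 of these 14 regions and higher at 0, and no region was called in bases, with a median log2 difference of -0.05. For these and the counts of the lists that follow, 43.4% of all broad regions and 22.0% of all shared regions were called lower, and no list was tested against them. Socs7 had percentiles of 83.4, 86.3 and 86.6 in controls and 76.9, 67.4 and 64.4 in Chd4KO (adjusted p = 0.0028). Socs1 had 81.4, 82.9 and 84.2 against 76.8, 71.2 and 72.6 (adjusted p = 0.007) at 1904 ± 90.4 and 1918 ± 53.1 bp. Foxo3 had 96.8 ± 0.649 against 96.3 ± 0.939 and was not called (adjusted p = 0.62). Without Control 1 or Control 3 the count was 5 of 14.

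Of 32 immediate early genes, 6 had a broad region: Jun, Junb, Jund, Ier5, Dusp1 and Csrnp1. The percentile was called lower at 5 and not at Jun (adjusted p = 0.057), and at 3 without Control 3. Csrnp1 went from 89.2, 88.4 and 91.3 to 84.8, 75.5 and 73.6 (adjusted p = 0.0053), and Dusp1, a phosphatase of MAP kinases, from 84.8, 85.2 and 88.8 to 81.0, 77.9 and 73.4 (adjusted p = 0.0089; 0.055 without Control 3). So at these genes all 3 Chd4KO libraries lay below the controls.

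Of 30 β-cell transcription factors 4 had a broad region (13.3%), and of 45 genes of insulin secretion 7 (15.6%). The share was 5.84% of all protein-coding genes and 9.53% of those with a shared gene-end region. Shares were higher for housekeeping (24%), cell cycle (25%), circadian (21.1%) and immediate early genes (18.8%). Other lists had lower ones, such as ribosomal proteins (3.85%), so no trait of β-cell genes is read from these shares. At Mnx1, a homeobox factor of β-cells, bases fell from 2074, 1864 and 1865 bp to 1552, 1585 and 1561 bp (log2 difference -0.30, adjusted p = 0.022; up to 0.079 without a Chd4KO library). At Nkx2-2, another homeobox factor, width was 2024 ± 12.9 and 1987 ± 45.7 bp, and the percentile went from 84.4, 86.0 and 85.6 to 77.7, 77.8 and 77.7 (adjusted p = 0.0037). At Foxo1, the forkhead factor restrained by insulin signalling, it went from 92.9, 92.5 and 93.0 to 89.2, 87.3 and 87.8 (adjusted p = 0.0039). Insm1, a zinc-finger factor, passed in neither measure (adjusted p = 0.099 for bases and 0.14 for the percentile). Thus 1 of the 4 was called narrower and 2 lower in rank, and none wider or higher.

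Among the secretion genes, Ptprn, a dense-core vesicle membrane protein, was not called in width (1737 ± 177 and 1765 ± 282 bp), and its percentile fell from 85.5, 87.1 and 88.5 to 71.4, 72.3 and 69.9 (adjusted p = 0.0002). Pcsk1, a prohormone convertase, and Vamp2, a vesicle SNARE, were lower by 6.31 and 13.4 points (adjusted p = 0.04 and 0.032). The Pcsk1 call was lost without Control 1, Control 3 or Chd4KO 1 (adjusted p up to 0.15). The Vamp2 call was lost without any 1 library but Chd4KO 1 (adjusted p up to 0.1). Chga, which encodes the granule protein chromogranin A, was the exception: the region at its far end, shared with the far end of Itpk1, rose from 39.3, 36.5 and 54.4 to 71.2, 64.0 and 64.9 (adjusted p = 0.0089). With a mean over its peaks weighted by width that difference was 7.14 points and was not called (adjusted p = 0.42). In all, 4 of the 7 secretion regions were called lower and 1 higher, a share called lower not far from the 43.4% of all broad regions.

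**Figure D5:**
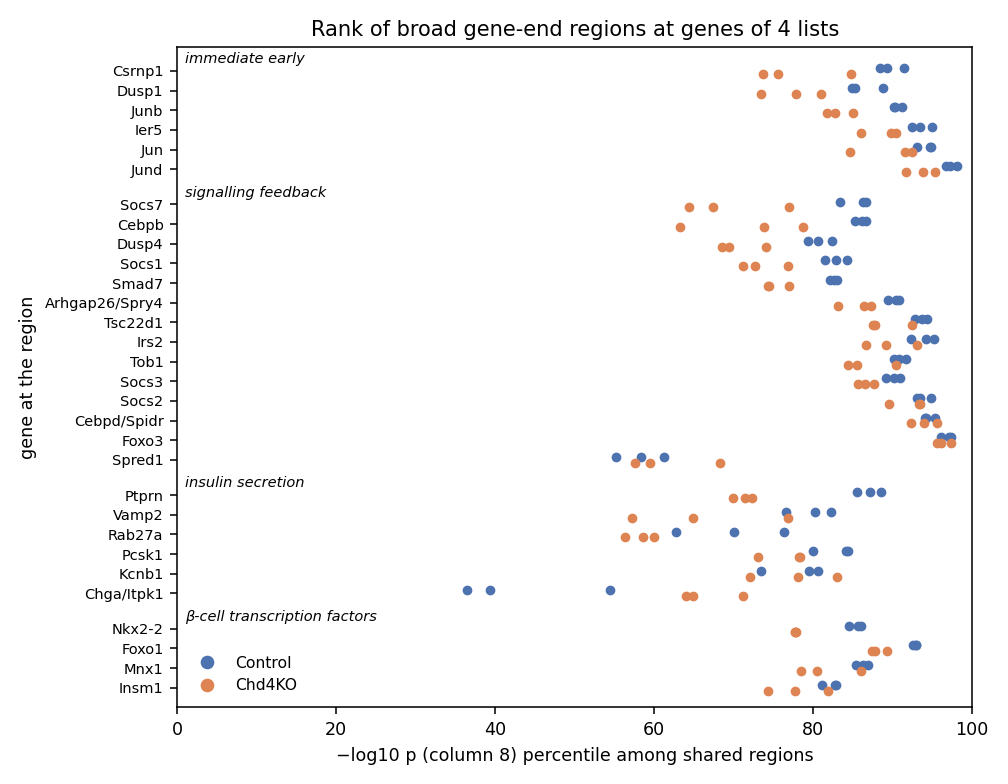
Percentile of the −log10 p among 73402 shared regions in each library, at broad regions of 4 gene lists (1 point per library). Chd4KO points lie below the control points at most regions, with Chga/Itpk1 above them, and 9 of 14 signalling feedback regions and 5 of 6 immediate early regions were called lower, beside 43.4% of all broad regions.

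Chromatin regulators with broad regions included 2 of 15 NuRD subunits, Mta1 and Mta3, both called lower in rank. Mta3 went from 89.4, 88.8 and 89.6 to 83.4, 85.2 and 82.3 (adjusted p = 0.006), and Mta1 from 68.1, 68.8 and 72.2 to 63.1, 56.9 and 48.2 (adjusted p = 0.033), a call that was lost without any 1 library but Chd4KO 1 (adjusted p up to 0.12). Of 20 SWI/SNF subunits 3 had a broad region, of which Ss18 narrowed from 1626, 1703 and 1667 bp to 1393, 1406 and 1422 bp (adjusted p = 0.01) and Smarcc2 fell in rank (adjusted p = 0.011). Of 20 Polycomb subunits 3 had one, where Rybp was lower by 8.84 points (adjusted p = 0.0058) and Pcgf5 higher by 3.60 points (adjusted p = 0.018; 0.078 without Control 3). Cell cycle genes had 6 of 24, called lower at 4, beside 43.4% of all broad regions (1 without Control 1, Control 3 or Chd4KO 2). Circadian genes had 4 of 19, called lower at Clock and Nfil3. Unfolded protein response genes had 3 of 28, called lower at Xbp1 and Herpud1 and at 0 without Control 1, Control 2 or Control 3.

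Housekeeping genes had 6 of 25, with 2 called lower in the percentile and 4 not called. Gapdh had 2349, 2527 and 2273 bp in controls and 2407, 2401 and 2359 bp in Chd4KO, with percentiles of 96.8 ± 0.185 and 97.8 ± 0.965 (adjusted p = 0.26). Of 26 ribosomal protein genes only Rpl7 had a broad region, of 20 disallowed genes only Rest, and of 18 dedifferentiation genes only Mycl, none called in width or in the percentile of the −log10 p. None of 40 developmental homeobox and related factors had one, although 15 have a shared gene-end region. The same held for all 78 genes of the 7 lists of other cell types, 31 of which have a shared gene-end region. Thus no listed marker of another cell type and no listed developmental factor lay at a broad region. Of all genes with a shared gene-end region 9.53% did. The lists hold few such genes and were not tested against that share, so a count of 0 is not read as a trait of them.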

How the data were processed

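ATAC-seq peak lists of 3 Control and 3 Chd4KO libraries were used, 1 deposited list per library. Per the peak names in the deposited files, MACS2 called peaks on shifted Tn5 cutting sites, and the build is mm10 per the submitters' processing notes. Its version and settings and the aligner were not given in the sources used here. Per the values in the deposited files, each peak has a score (10 times its −log10 q as a whole number), a fold enrichment (a ratio, column 7), a −log10 p (column 8) and a −log10 q. These are the authors' own values and were used only to describe and rank peaks within a list. No read counts are given, so depth and intervals based on it are unknown.

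Regions were merged at an overlap of at least 1 bp. Genes were 21887 protein-coding RefSeq genes of GRCm38.p6, the assembly mm10 names, of which 17492 matched the RefSeq promoter table. Of 1278 genes at broad regions, 994 matched. Bases under peaks (log2, unscaled, no pseudocount) and the percentiles of columns 7 and 8 over 73402 shared autosomal regions were tested with limma 3.58.1 (R 4.3.3, empirical Bayes with trend), Benjamini-Hochberg adjusted over all regions, threshold 0.05, and tested on simulated data. SE are from limma; SD are over 3 libraries. Same-numbered libraries do not pair in the labels, so no block was used.

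The members and gene lists were chosen with earlier results of these data known. Named regions are the 10 widest, the 8 largest falls and 8 largest rises of bases and the 6 largest falls and 6 largest rises of the column 8 percentile among regions whose groups do not overlap, the 3 on either side of 1500 bp, and up to 8 regions for each of the lists of β-cell transcription factors, insulin secretion, immediate early, unfolded protein response, circadian clock, signalling feedback, NuRD and other cell types; 2 regions that this rule names are not reported here. Ss18, Smarcc2, Rybp, Pcgf5, Gapdh, Rpl7, Rest and Mycl belong to other lists, outside that rule, and were named after their values were seen. Alternatives covered the width limit, the libraries that choose regions, scaling, a pseudocount of 300 bp, ranking, filters and single libraries left out.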

Additional observations from a re-analysis of the deposited data

How the results depend on the processing

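With a width minimum of 1200 bp there were 3147 regions, with 144 called lower and 42 higher in bases, 728 and 47 in the column 7 percentile and 1156 and 125 in the column 8 percentile. With 2000 bp there were 141 regions, with 12 and 1, 9 and 5, and 65 and 6. With the width asked of the Chd4KO libraries the median difference of bases turned to 0.0035, bases were called lower at 20 and higher at 35, and 4 and 20 regions were called higher in columns 7 and 8. With the width asked of all 6 libraries 20 were called lower in bases, and 2 and 13 higher in columns 7 and 8. Where every library had to cover at least 50% of the region, 120 were lower in column 7. Bases scaled to the mean total had a median difference of -0.19 with 340 lower and 1 higher, beside 12.6% and 3.14% of all shared regions. Bases scaled to the same median had -0.071 with 4 higher, beside 3.70%. Percentiles over each library's own list gave medians of -3.69 and -1.57 points in columns 7 and 8, with 101 lower in column 7 and 211 lower and 55 higher in column 8. The shares of all shared regions were 14.4%, 11.8% and 22.0% in the same order. A mean weighted by width left 10 higher in column 7 and turned Ptprk to -5.003 points in column 8. Testing gene-end regions only gave 339 lower in column 7, and the 50000 strongest peaks of each library a median of -7.72 points in column 8. In regions chosen by 2 controls the median difference of bases from the control left out was -0.014 to -0.025, with -0.025 for Control 2. Under all other settings of these results the counts stayed within 1.5 times and the direction was kept.

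Without 1 library at a time, bases were called lower at 27 to 44 and higher at 3 to 10 regions, column 7 lower at 36 to 205 and higher at 11 to 16, and column 8 lower at 223 to 484 and higher at 28 to 38. Over all shared regions the shares called lower were 0.847% to 1.68% in bases, 11.1% to 18.8% in column 7 and 13.7% to 21.3% in column 8. The lowest counts came without Control 3 (bases lower, column 7 lower, column 8 lower) and without Chd4KO 2 (bases higher). The cause of these changes was not tested.

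With the replicate number as a block, limma called 0 regions lower and 0 higher in bases (163 and 41 at an unadjusted p under 0.05), while 123 and 15 were called in column 7 and 471 and 34 in column 8. The numbers are shared by the groups, but same-numbered libraries did not deviate together (correlations 0.04, 0.06 and -0.02 in bases, 0.05, 0.17 and -0.00 in column 7, and 0.08, 0.13 and -0.03 in column 8), so a call lost under the block is not described as weaker.

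Over 190 values of named regions and their alternatives, 1995 in all, 1678 kept their side of the threshold and direction, 151 lost a call, 66 gained one, 99 moved by more than the spread and 1 turned. The normal score of the rank has another unit, so no median was given for it. Depth is unknown and limits every comparison of widths and ranks.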

Other observations

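At 16 broad regions the known gene ends within 1 kb were all far ends, away from the transcription start. Besides Chga with Itpk1 they included C2cd4b, Ubb, a polyubiquitin gene, Hnrnpa3, an RNA-binding protein gene, Bad, a pro-apoptotic member of the BCL2 family, and Cplx2, a complexin of vesicle release. C2cd4b had 2133 bp under peaks in controls and 2116 bp in Chd4KO on average, and its percentile of the −log10 p was 94.0 and 90.1 (limma adjusted p = 0.021). Ubb had 2131 ± 346 and 1921 ± 241 bp and ranked low, with percentiles of 25.4 ± 7.93 and 20.8 ± 5.31 (adjusted p = 0.53), and Hnrnpa3 had a mean of 14.02 in controls and 18.2 in Chd4KO (adjusted p = 0.52).

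Promoter composition also varied within the broad regions. The 484 starts in regions whose percentile of the −log10 p was called lower had a median GC content of 68% and 30 CG dinucleotides in 300 bases, and 25.4% held CCAAT. The 24 starts in regions called higher had 61.3%, 18.5 and 45.8%, and the 545 starts in regions not called had 66.3%, 26 and 35.0%. These are descriptions with no test, and the calls come from the comparison that the choice of regions touches.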
